A study of Mus musculus with 4 samples.

Results

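The CD antigen genes were taken by name: an autosomal probe was a member when the gene name it carried, with any trailing distance removed and shared names split, was Cd followed by a number, so that Cdc and Cdk genes stayed out. This gave 79 genes of 16129 autosomal genes, with 379 of 79904 probes in 91 of 18492 regions. The study hybridised genomic DNA from the intestine of 32-month-old C57BL/6 mice, labelled with Cy5, together with that of 3-month-old C57BL/6 mice, labelled with Cy3. One array carried chromosomes 1 to 8 and the other chromosomes 9 to 19, X and Y, which made 2 arrays and 4 samples in all. Both ages were of the same strain, no genetic change or treatment is recorded, and the sources used here give neither the number of mice behind each sample nor the segment of intestine. Each member was therefore measured once at each age, with no swap of the dyes. All differences below are differences between 2 samples, without a test, and age cannot be told apart from dye or from the individual samples.

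CD antigens are cell surface molecules numbered by the antibodies that recognise them. Many mark and steer leukocytes: the T cell receptor is read out through the CD3 chains, B cells signal through CD79, and macrophages and dendritic cells carry receptors that take up or sense other cells and microbes. Others, among them several tetraspanins and complement regulators, are found on many kinds of cell. The intestine holds one of the largest populations of lymphocytes and macrophages in the body beside its epithelium. Methylation of CpG dinucleotides near a gene's start often differs between cell lineages that use the gene and lineages that do not. In DNA from whole tissue, a change in the share of a cell type and a change of methylation within cells cannot be told apart.

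Sequences are shown first for 4 regions described below: Cd200r2, whose value rests on 1 probe, Cd70 and Cd320, whose values were next in size below the threshold of 1, and Cd81, whose neighbouring probes disagreed. They are those of the deposited array files, 5′ to 3′, with CpG dinucleotides in capitals and probes numbered along each region. Cd200r2, a member of the CD200 receptor family of myeloid cells, had 2 usable probes, and only the higher one carries a CpG.
Cd200r2 probe 1: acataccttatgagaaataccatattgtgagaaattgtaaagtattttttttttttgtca
Cd200r2 probe 3: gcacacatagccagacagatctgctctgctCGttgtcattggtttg

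Cd70, the ligand of the lymphocyte receptor CD27, had 5 usable probes. Probes 1, 3 and 5 were higher at 32 months and hold 1 CpG each, whereas probes 2 and 4 were lower and hold none.
Cd70 probe 1: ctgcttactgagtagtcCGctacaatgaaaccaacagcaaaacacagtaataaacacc
Cd70 probe 2: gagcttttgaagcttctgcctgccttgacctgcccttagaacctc
Cd70 probe 3: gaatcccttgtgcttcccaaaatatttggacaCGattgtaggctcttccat
Cd70 probe 4: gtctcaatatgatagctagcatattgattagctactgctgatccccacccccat
Cd70 probe 5: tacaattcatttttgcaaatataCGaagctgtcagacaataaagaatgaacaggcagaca

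Cd320, the receptor for transcobalamin-bound vitamin B12, held the lowest of all usable member probes. The probes nearest its start hold 2 or 3 CpG dinucleotides each.
Cd320 probe 5: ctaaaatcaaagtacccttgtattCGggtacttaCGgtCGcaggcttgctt
Cd320 probe 6: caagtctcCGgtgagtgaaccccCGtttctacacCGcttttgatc
Cd320 probe 7: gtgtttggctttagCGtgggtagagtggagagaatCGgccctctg

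Cd81, a tetraspanin, is shown for 2 neighbouring promoter probes that went in opposite directions.
Cd81 probe 3: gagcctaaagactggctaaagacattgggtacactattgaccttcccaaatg
Cd81 probe 4: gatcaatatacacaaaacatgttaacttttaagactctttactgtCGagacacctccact

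A probe was usable when the scanner software raised no outlier flag and its signal was well above background in at least 1 of the samples. Of the member probes, 289 were usable. In 19 of these the 32-month signal, and in 14 the 3-month signal, was not well above background, so that only a bound can be given there. Over each whole array, 72.5% and 70.1% of probes were well above background at 32 months, against 71.2% and 71.4% at 3 months, and no probe was saturated. The value of a probe was the log2 of its processed 32-month signal over its processed 3-month signal minus the median of the array, so that a positive value means a higher signal at 32 months. Folds are given after the same centring and so differ slightly from the quotient of the printed signals. Neighbouring probes up to 1000 bp apart under the same name formed a region, and a region with at least 2 usable probes was measured. Its value is the median with the SD over probes, which is a spread along the DNA and not a replicate error. By these criteria 70 of the 79 genes were measured, in 71 regions. The 9 genes without a measured region were Cd109, Cd14, Cd200r1, Cd200r3, Cd200r4, Cd226, Cd27, Cd302 and Cd53. Of the 20 unmeasured regions, 14 had exactly 1 usable probe and 6 had none.

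No CD antigen region met the call for a higher signal, a median of at least 1 (a doubling) with every usable probe above 0, and none met the mirrored call for a lower one. Among all 14835 measured autosomal regions, 1.83% were called higher and 0.586% were called lower, so that 0 of 71 regions lies close to the background in either direction. A median of at least 1 was reached by 1 member region, that of Cd200r2, against 2.8% of autosomal regions, and a median of at most -1 by none, against 0.883%. Probe by probe, 10 of the 289 usable member probes reached 1 (3.46%), against 5.99% of autosomal probes. At or below -1 were 11 member probes (3.81%), against 3.5% of autosomal probes.

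The median over the 70 measured genes was -0.051, and that over all 14016 measured autosomal genes was 0.0011. Signal was higher at 32 months in 26 member genes (37.1%), against 50.2% of autosomal genes. A gene value beyond 0.5 in size occurred in 8 members (11.4%), against 12.7% of autosomal genes. The 8 include Cd274 (-0.85), whose measured region lies at the start of its neighbour Plgrkt, and Cd200r2 (2.51), which rests on 1 probe. Between the arrays the shift had the same sign, with medians of -0.079 over 41 members of chromosomes 1 to 8 and -0.044 over 29 members of chromosomes 9 to 19. Single member genes spread with an SD of 0.44, which includes Cd200r2 at 2.51. Within regions the probes rarely pointed one way: 55 of the 71 had probes on both sides of 0 (77.5%, against 73.3% of autosomal regions), 6 had all probes above 0 and 10 had all below. The median lay within 1 SD of 0 in 57 regions. This count and those of regions with all probes on 1 side were not made for all autosomal regions, so they have no background share.

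**Figure D1:**
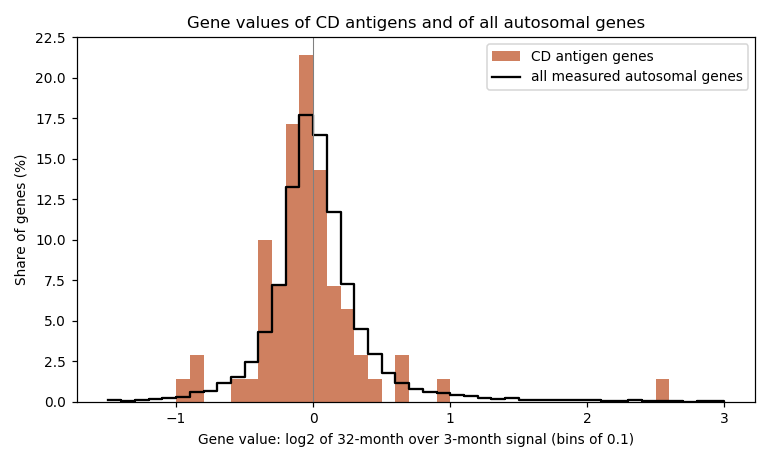
Share of genes (y axis, percent) in bins of the gene value (x axis, log2 of 32-month over 3-month signal, bins of 0.1), as filled bars for the 70 measured CD antigen genes and as a black line for the 14016 measured autosomal genes. Autosomal genes beyond the x axis are left out. The member distribution is centred just below 0, with a median of -0.051, and its rightmost bar is Cd200r2 at 2.51.

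The lymphoid, myeloid and broadly expressed members had medians just below 0. Members were put in classes by gene name, and expression was not measured. The region shared by Cd3g and Cd3d counts for both genes in the counts and medians over genes. The median was -0.044 over 21 lymphoid genes, of which 9 were above 0. It was -0.032 over 23 myeloid and antigen-presenting genes, also with 9 above 0, and is the value of Cd80, which rests on probes near background. Over 22 broadly expressed genes, with Cd274 counted by its region at Plgrkt, it was -0.051, with 7 above 0. In the 4 measured genes shared by leukocytes it was -0.10, with 1 above 0. The SD over genes was 0.33 for lymphoid, 0.59 for myeloid, 0.34 for broadly expressed and 0.28 for shared leukocyte genes. The myeloid SD includes Cd200r2 at 2.51, whose value rests on 1 probe. The quartiles were -0.16 and 0.16 for myeloid, -0.15 and 0.11 for lymphoid and -0.26 and 0.013 for broadly expressed genes. Whether the medians differ was not tested. At or below -1 were 9 of 94 usable probes of broadly expressed genes (9.57%), 0 of 80 lymphoid and 2 of 95 myeloid probes, with 3.5% over all autosomal probes, and this difference was not tested. By array, 7 of 48 broadly expressed probes on chromosomes 9 to 19 and 2 of 46 on chromosomes 1 to 8 were that low, where the shares of all autosomal probes were 4.97% and 2.08%. These 9 probes came from 5 genes, 3 from Cd320 and 2 from Cd81. The 2 under the Cd274 name lie at the start of its neighbour Plgrkt. Several of the 9 lay within 2 of the scanner software's own errors of 0. They were both Cd274 probes (errors 1.44 and 0.97), the Cd276 probe (error 1.26) and the middle Cd320 probe (error 1.29). The Cd276 probe and the Cd274 probe with error 1.44 were not well above background at 32 months. The rest, from Cd320, Cd81 and Cd164, exceeded 2 errors.

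**Figure D2:**
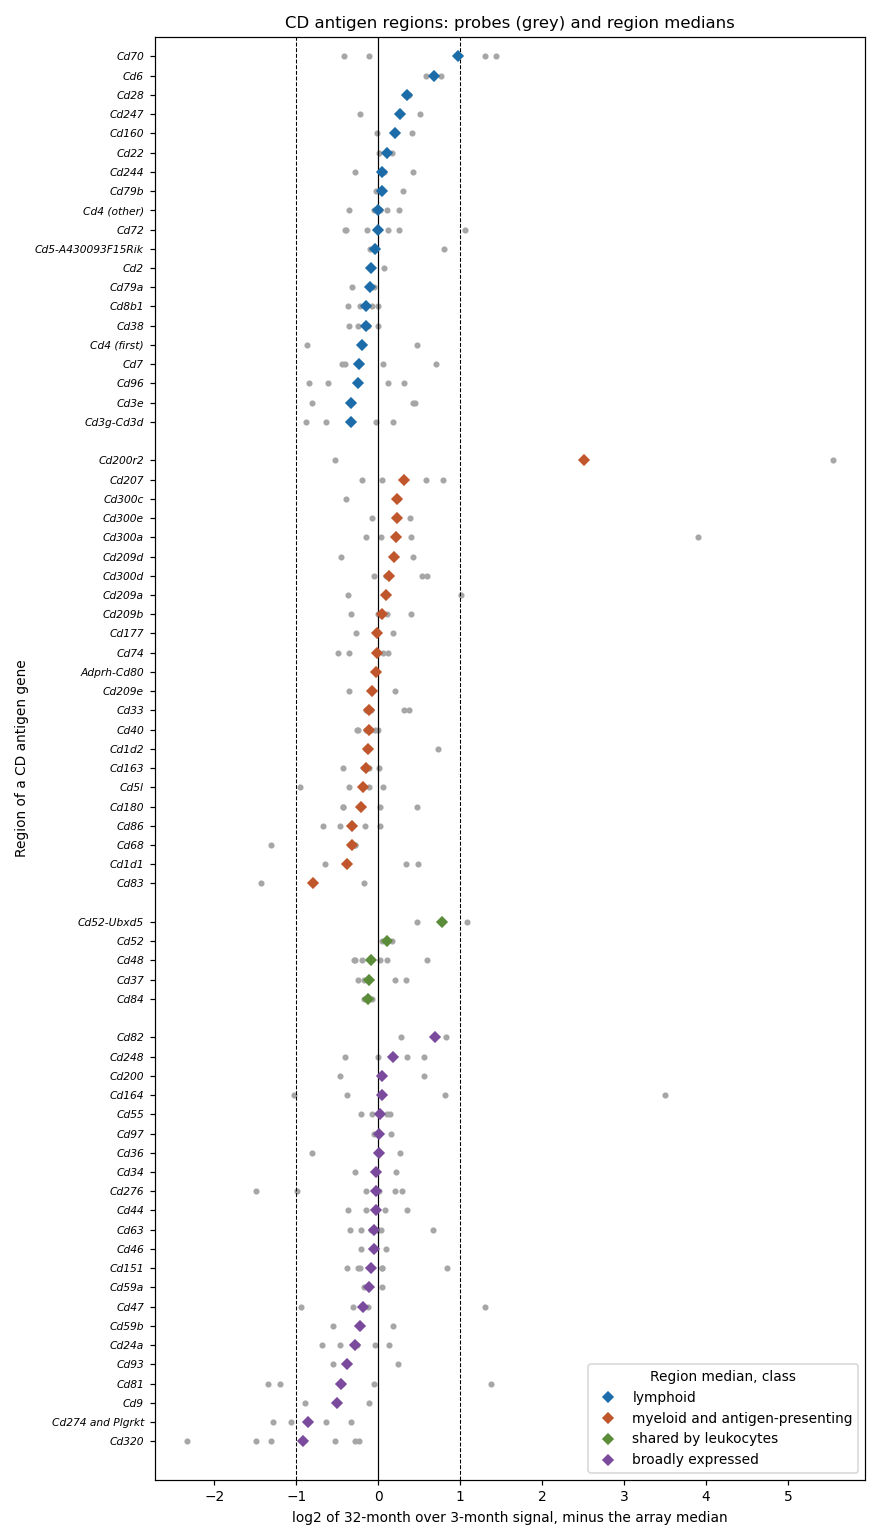
CD antigen regions (rows, grouped by class and ordered by value), with the log2 of 32-month over 3-month signal on the x axis; grey points are usable probes, coloured diamonds are region medians, and dashed lines mark -1 and 1. Of the diamonds, 1 lies beyond a dashed line, that of Cd200r2 at 2.51, and in most rows the grey points lie on both sides of 0.

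In the T cell receptor complex, the regions of the CD3 chains were below 0 and that of the zeta chain above it, and each sign turned under 1 alternative. Cd3e, which encodes the epsilon chain, was measured on chromosome 9 at 44760219 to 44761330 (positions as in the deposited files, whose genome build is not given in the sources used here). Its 5 probes had 32-month signals of 97.7, 1590, 398, 180 and 57.4, against 74.2, 1230, 522, 234 and 104 at 3 months. The first 2 were higher and the other 3 lower at 32 months, for a region value of -0.33 ± 0.54 (SD over 5 probes). The region between Cd3g and Cd3d, 2 further chains transcribed away from each other, had 4 usable probes, with 51.5, 398, 60.6 and 791 at 32 months, against 98.1, 420, 97.8 and 721 at 3 months. Its value was -0.33 ± 0.50, and the 2 lowest probes were not well above background at 32 months. Without probes that were dim in a sample, Cd3e was at 0.028 and the shared region at 0.060. Cd247, the zeta chain, was at 0.27 ± 0.37 over 3 probes and at -0.054 with normexp background correction, which works on the raw spot and local background brightness.

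The coreceptors and other T cell surface genes were close to 0 with few exceptions. At the start of Cd4, the coreceptor of helper T cells, 6 probes had 103, 63.1, 472, 276, 98.1 and 376 at 32 months, against 87.8, 66.8, 488, 277, 92.8 and 491 at 3 months. The probe signals of both ages were nearly equal, and the region was at 0.0022 ± 0.20. A separate pair of probes inside Cd4 differed in sign, with 1240 and 141 at 32 months against 912 and 262 at 3 months, for -0.20 ± 0.95. Cd8b1, the beta chain of the coreceptor of cytotoxic T cells, was at -0.15 ± 0.16, with all 4 probes below 0. Cd6, a T cell adhesion receptor, had 1410 and 13700 at 32 months, against 972 and 8360 at 3 months, and both probes were higher at 32 months (0.68 ± 0.12). With normexp Cd6 reached 1.11 and met the call. The region of Cd5, a related receptor, was at -0.044 ± 0.51, the adhesion receptor Cd2 at -0.082 ± 0.094 and Cd7 at -0.24 ± 0.47. Cd28, the costimulatory receptor, was at 0.35 ± 0.039 over the 2 usable of its 6 probes, and as low as 0.0063 under the alternatives. The immunoglobulin family receptors Cd96, Cd160 and Cd244 were at -0.25 ± 0.56, 0.20 ± 0.30 and 0.047 ± 0.29.

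Cd70 was the highest lymphoid region, at 0.98 ± 0.85 on chromosome 17 from 56834794 to 56836089, just under the call, and 0.35 with normexp. Its probes had 769, 24000, 338, 16000 and 253 at 32 months, against 323, 33300, 178, 17900 and 96.9 at 3 months. Probes 1, 3 and 5 were 1.30, 0.98 and 1.44, whereas probes 2 and 4 were -0.42 and -0.11. The scanner software's own errors for the first 3 were 0.33, 0.59 and 0.82 on the log2 scale. As the sequences above show, the higher probes are the ones with a CpG, and they are also the dimmer ones within the region, so that CpG content and brightness cannot be told apart here.

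The B cell genes described here were centred near 0. Cd79a and Cd79b, the signalling chains of the B cell receptor, were at -0.10 ± 0.14 and 0.042 ± 0.17. Cd79a had 800, 1100 and 216 at 32 months, against 875, 1160 and 274 at 3 months, slightly lower in every probe. The inhibitory receptors Cd22 and Cd72 were at 0.11 ± 0.079 and -0.0047 ± 0.54. Cd72 held a single probe past the threshold, with 629 at 32 months against 309 at 3 months (1.05, scanner error 0.38). Cd38, an enzyme that hydrolyses NAD on activated lymphocytes, was at -0.15 ± 0.13, with all 5 probes below 0. Of the genes shared by leukocytes, the tetraspanin Cd37 was at -0.12 ± 0.23, the adhesion receptor Cd48 at -0.089 ± 0.34 and the related Cd84 at -0.13 ± 0.067. Cd48 had a bright promoter probe at 16500 and 16600 at 32 and 3 months. The region named for Cd52, a small glycoprotein of lymphocytes, was at 0.10 ± 0.088. A further region named for both Cd52 and Ubxd5 was at 0.78 ± 0.43, and at -0.048 with normexp background correction. A probe of this further region matches the promoter of Ubxn11 in the reference sequences and not that of Cd52. The gene value of Cd52, the mean of both regions, was 0.44.

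Among myeloid genes, Cd200r2 stood apart through a single probe. On chromosome 16 from 44785995 to 44786453, probe 1 had 151 at 32 months against 225 at 3 months (-0.52, scanner error 0.71). Probe 3 had 176000 at 32 months against 3900 at 3 months, which is 46.8-fold after centring (5.55, scanner error 0.56). Both spots were well above background and neither was flagged. The middle probe was not well above background in either sample, with 60.1 at 32 months and 67.1 at 3 months. The region value of 2.51 ± 4.29 is the midpoint of probes that disagree in sign, and it became -0.020 when dim probes were kept. Probe 3 matches the RefSeq promoter window of Cd200r2 exactly, from position -21 to position 24 with the annotated start as 0, and its CpG lies past the start. The 250 bases before that start hold no CpG (GRCm38.p6, plus strand, chr16:44866847-44867096, from RefSeq), and are printed to show how sparse the sequence is.
Cd200r2 upstream: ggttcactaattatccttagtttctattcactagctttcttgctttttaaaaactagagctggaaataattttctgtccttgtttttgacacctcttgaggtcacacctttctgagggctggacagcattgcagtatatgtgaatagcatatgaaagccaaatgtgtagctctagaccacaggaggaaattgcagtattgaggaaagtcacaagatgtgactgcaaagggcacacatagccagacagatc

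The 4 paired immune receptors of the Cd300 family were above 0. Cd300a, an inhibitory member, had 79.2, 1030, 2270 and 951 at 32 months, against 62.0, 1180, 2300 and 66.0 at 3 months. The first 3 probes were within 0.41 of 0, whereas the last, inside the gene and with 1 CpG, was at least 14.9-fold higher at 32 months after centring, a bound because its 3-month signal was not well above background. The region value was 0.22 ± 1.92. Cd300c was at 0.23 ± 0.36, Cd300d (now Cd300c2) at 0.13 ± 0.29 and Cd300e at 0.23 ± 0.24. Of these, Cd300a was at -0.075 without probes that were dim in a sample, and Cd300d at -0.16 with normexp. The C-type lectins of macrophages and dendritic cells also stayed near 0: Cd209a was at 0.091 ± 0.70, Cd209b at 0.050 ± 0.30, Cd209d at 0.20 ± 0.46 and Cd209e at -0.079 ± 0.40. Cd209a held a promoter probe with 2660 at 32 months against 1350 at 3 months (1.01, scanner error 0.23). Cd207, the lectin langerin of Langerhans cells, was at 0.32 ± 0.46, and its 2 highest probes were not well above background at 3 months. It was at -0.11 with normexp and at -0.064 without probes that were dim in a sample, and Cd209b, Cd209d and Cd209e also changed sign under at least 1 alternative.

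Of the other myeloid and antigen-presenting genes, which include scavenger, presentation and costimulatory molecules, few differed from 0 by more than the spread over their probes. Cd33, Cd74, Cd80, Cd83 and Cd1d2 changed sign under at least 1 alternative. Cd68, a lysosomal glycoprotein of macrophages, had 4270, 60, 54.7 and 57.5 at 32 months, against 5410, 79.2, 141 and 72.5 at 3 months. All 4 probes were lower at 32 months, 2 of them not well above background then, and the region was at -0.32 ± 0.50. The scavenger receptor Cd163 was at -0.14 ± 0.19 and the sialic acid binding receptor Cd33 at -0.11 ± 0.23. Cd5l, a secreted scavenger protein of macrophages, was at -0.18 ± 0.39, Cd180, a relative of the Toll-like receptors, at -0.21 ± 0.38, and Cd177, a neutrophil antigen, at -0.0096 ± 0.23. Cd74, the invariant chain of class II antigen presentation, was at -0.0096 ± 0.27. Cd1d1, which presents lipids to natural killer T cells, had 170, 17900, 170, 588 and 64.8 at 32 months, against 226, 23900, 137, 427 and 104 at 3 months. It was at -0.38 ± 0.50 and its near copy Cd1d2 at -0.12 ± 0.50. Of the costimulatory molecules, Cd86 had 66.2, 51.0, 605 and 314 at 32 months, against 95.0, 84.2, 704 and 322 at 3 months (-0.32 ± 0.31). Its 2 lowest probes were not well above background at 32 months. For Cd80, the measured region of the name it shares with Adprh was at -0.032 ± 0.0065, from 2 usable probes near background. They had 56.1 and 94.0 at 32 months, against 59.3 and 100 at 3 months, with scanner errors of 1.97 and 1.26. The first was not well above background at 3 months, so the small SD does not mean a precise value. A probe that matches the promoter of Cd80 lies in the other region of that name, which had no second usable probe, at 1130 at 32 months and 1050 at 3 months (0.16). Cd40, the receptor through which T cells help antigen-presenting cells, was at -0.12 ± 0.11. Cd83, a maturation marker of dendritic cells, was at -0.80 ± 0.89 and rests on 2 probes: a promoter probe with 436 at 32 months against 1220 at 3 months (-1.43, scanner error 0.29), and a probe inside the gene with 9610 at 32 months against 11200 at 3 months (-0.17). With normexp the region was at 0.075.

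**Figure D3:**
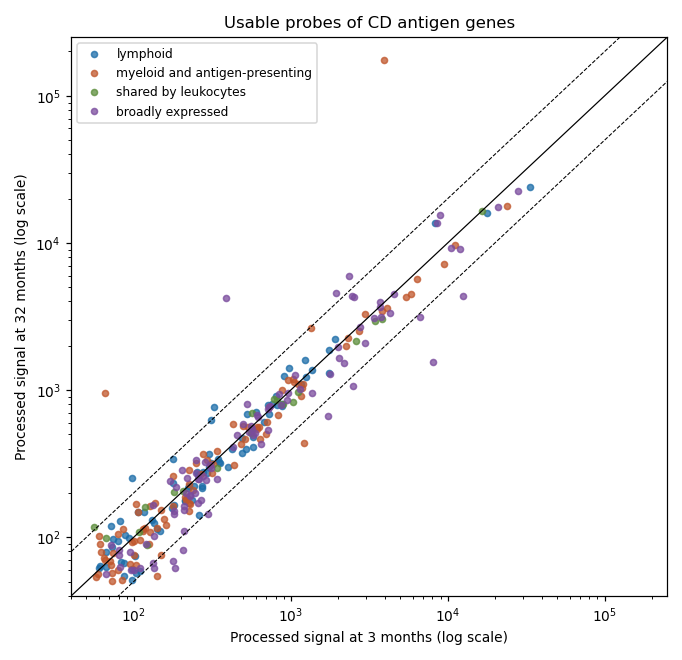
Processed signal of each usable CD antigen probe at 32 months (y axis) against 3 months (x axis), both on log scales and coloured by class; the solid line marks equal signals and the dashed lines a doubling or halving. Most probes lie between the dashed lines. The point at the top is Cd200r2 probe 3 (176000 at 32 months, 3900 at 3 months), the point at the upper left is Cd300a probe 4 (951 and 66.0), and the scatter widens at the dim end.

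Of the broadly expressed genes, Cd320 was the lowest. Its region on chromosome 17 from 33448213 to 33449567 had 6 usable probes, with 143, 170, 69.1, 200, 4330 and 1550 at 32 months, against 180, 255, 178, 244, 12600 and 8100 at 3 months. Every probe was lower at 32 months, and the region was at -0.92 ± 0.83, just short of the call, and at -0.30 with normexp and -0.45 with dim probes kept. The last 2 carried the difference, at -1.49 and -2.33, or 2.81-fold and 5.04-fold lower at 32 months after centring, with scanner errors of 0.25 and 0.30. With the mean over probes in place of the median the region was at -1.03 and met the call. RefSeq gives Cd320 a pair of start sites in this stretch. Probe 7 matches the window of the second from position -26 to position 18, and probe 6 lies at positions -144 to -100 of the same window. Probe 5, at -0.23, matches the window of the first start from position -72 to position -22. The 250 bases before the second start, printed for their CpG density and because they hold probe 6 and the first part of probe 7, contain 22 CpG, against 5 before the first start (GRCm38.p6, plus strand, chr17:33843176-33843425, from RefSeq).
Cd320 upstream of the second start: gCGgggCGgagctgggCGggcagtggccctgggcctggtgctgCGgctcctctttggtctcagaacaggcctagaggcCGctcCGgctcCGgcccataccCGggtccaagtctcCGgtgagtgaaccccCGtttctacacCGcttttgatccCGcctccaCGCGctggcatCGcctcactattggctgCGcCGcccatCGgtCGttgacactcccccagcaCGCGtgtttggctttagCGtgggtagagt

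The tetraspanins, 4-pass membrane proteins that organise other receptors, differed in sign. Cd82 was the highest, with 13700, 15500 and 1260 at 32 months, against 8610, 8900 and 1060 at 3 months, and all 3 probes higher at 32 months (0.70 ± 0.29). Cd81 had 248, 5980, 668, 1290, 2100 and 1070 at 32 months, against 262, 2350, 1730, 1790, 2970 and 2500 at 3 months. Probe 3 was at 1.38 and the next probe at -1.34, with scanner errors of 0.24 and 0.27, so that neighbouring bright probes differed in sign by more than those errors. The 4 probes from there into the gene were all lower at 32 months, and the region was at -0.46 ± 0.98. Cd9 was at -0.50 ± 0.56, Cd63 at -0.047 ± 0.35 and Cd151 at -0.092 ± 0.44. Cd151 held a bright inner probe with 4330 at 32 months against 2460 at 3 months (0.84, scanner error 0.22).

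Regulators of complement, which protect host cells from lysis, were near 0: Cd46 was at -0.055 ± 0.21, Cd55 at 0.018 ± 0.17, Cd59a at -0.11 ± 0.12 and Cd59b at -0.22 ± 0.37. Cd47, which restrains phagocytes, was at -0.18 ± 0.82. It held a promoter probe with 4 CpG and 4590 at 32 months, against 1930 at 3 months (1.30, scanner error 0.24), while its other 4 probes were below 0. For Cd274, the ligand of the inhibitory receptor PD-1, the measured region of its shared name lies at the other end, at the start of Plgrkt, where a probe matches that promoter. It had 59.7, 62.3, 61.6 and 81.6 at 32 months, against 96.2, 81.6, 134 and 206 at 3 months, and was at -0.85 ± 0.43, with the middle pair not well above background at 32 months. The stretch at the start of Cd274 itself had 1 usable probe, at 333 and 250 at 32 and 3 months (0.47). The related Cd276 was at -0.028 ± 0.67. Cd200, which restrains myeloid cells through its receptors, was at 0.046 ± 0.73, the fatty acid transporter Cd36 at 0.0094 ± 0.56 and the adhesion receptor Cd97 (now Adgre5) at 0.014 ± 0.10.

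Cd34, a sialomucin of endothelium and progenitors, had 326 and 1650 at 32 months, against 285 and 2040 at 3 months (-0.027 ± 0.35). Cd93, an endothelial lectin, was at -0.38 ± 0.41, and Cd248, a marker of stromal and perivascular cells, at 0.18 ± 0.37. Cd44, the hyaluronan receptor present on intestinal crypt cells, had 1010, 743, 545, 519, 102 and 165 at 32 months, against 1140, 715, 565, 542, 134 and 132 at 3 months (-0.028 ± 0.24). Cd24a, a small glycoprotein of epithelium and B cells, had 60.3, 294, 22500, 3350, 949 and 652 at 32 months, against 101, 312, 27900, 4280, 1360 and 619 at 3 months. Of these, 5 of 6 were lower at 32 months (-0.28 ± 0.29), but the value became 0.13 with normexp background correction. Cd164, a sialomucin, had 3150, 249, 953, 4280 and 4200 at 32 months, against 6640, 337, 961, 2520 and 385 at 3 months. Its values ran from -1.02 at the outermost promoter probe to 3.50, or 11.3-fold higher at 32 months, at the innermost probe, so that the region value of 0.040 ± 1.76 hides both.

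**Figure D4:**
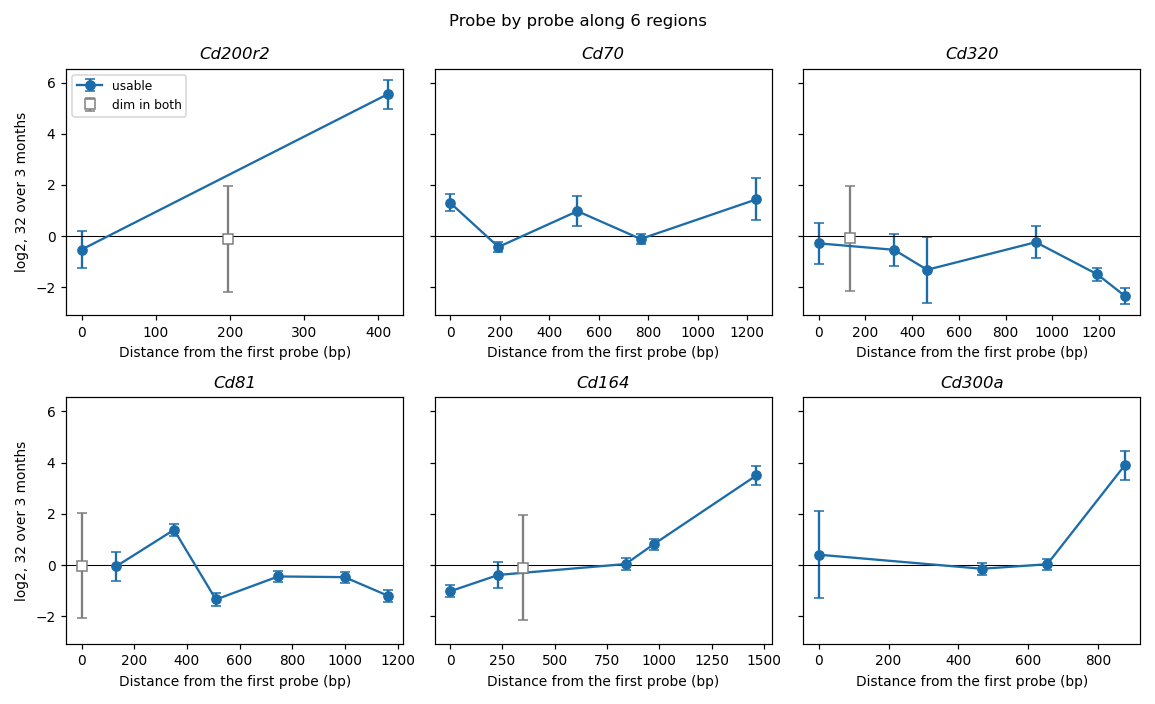
Log2 of 32-month over 3-month signal (y axis) by distance from the first probe of the region (x axis, bp) for Cd200r2, Cd70, Cd320, Cd81, Cd164 and Cd300a; bars are the scanner software's error of 1 spot, and open squares are probes not well above background in either sample. In Cd200r2, Cd164 and Cd300a the last probe, inside the gene, is far above the rest (5.55, 3.50 and 3.90), and in Cd320 the last 2 are the lowest.

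Few member probes differed by more than the scanner software's own error for a spot allows. A size above 2 scanner errors was found in 24 of the 289 usable member probes (8.30%), against 13.3% of all usable autosomal probes. Of the 24 probes, which came from 15 genes, 15 were higher and 9 lower at 32 months, a split not computed for all autosomal probes. Of the 21 member probes past 1 in size, spread over 14 regions, 14 exceeded 2 scanner errors. The remaining 7 lay within 2 errors of 0, among them the middle Cd320 probe with 69.1 at 32 months against 178 at 3 months (-1.31, error 1.29).

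CD antigen promoters were poor in CpG by comparison. At least 1 CpG was present in 43.9% of usable member probes, against 59.2% of autosomal ones. Promoter windows of 300 bases in RefSeq (GRCm38.p6), matched by symbol for 55 member genes in 63 windows, held a median of 4 CpG, against 7 over 31396 autosomal windows. The letters CCCGGG, searched once since they read the same on both strands, were in 9.52% of member windows and 13.8% of autosomal windows. Over all autosomal probes the median value was -0.030 without a CpG, -0.0016 with 1, 0.037 with 2, 0.070 with 3 and 0.12 with 4 or more. Member probes had medians of -0.031, -0.082, -0.015, -0.47 and -0.13 in the same order, the last pair from 7 and 4 probes. Among probes with at least 1 CpG, the median was -0.081 for 127 member probes and 0.029 for 35705 autosomal probes. By position, promoter probes of members had a median of -0.081, probes inside genes -0.023 and probes of divergent promoters -0.044, against -0.0023, 0.015 and 0.0084 over all autosomal probes.

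**Figure D5:**
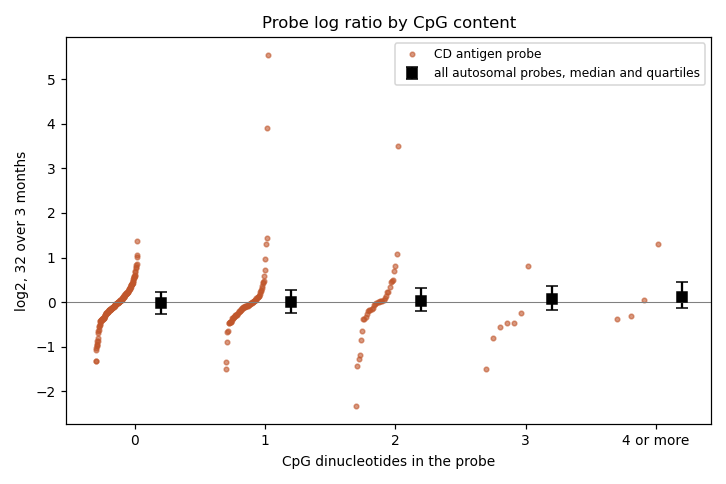
Log2 of 32-month over 3-month signal (y axis) by the number of CpG dinucleotides in the probe (x axis); points are usable CD antigen probes, ordered within each column by value, and squares with bars are the median and quartiles of all autosomal probes. The autosomal medians go from -0.030 to 0.12 along the axis, while the member probes with 3 CpG have a median of -0.47 from 7 probes.

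CD antigens that carry another gene symbol were described as the neighbouring list. Of 68 such genes, 60 were measured in 63 regions, and 0 regions were called in either direction. Among all measured autosomal regions 1.83% were called higher and 0.586% lower, so that 0 of 63 lies close to the background. The median of the list was 0.012, with 32 of 60 genes above 0. The pan-leukocyte phosphatase Ptprc (CD45) was at 0.29 ± 0.22 over 3 probes, all above 0. Itgae, the integrin chain of intraepithelial lymphocytes, was at 0.21 ± 0.28, and Thy1, a marker of T cells and stroma, at 0.14 ± 0.75. Some other lymphocyte genes of the list were below 0, among them Ly9 at -0.54 ± 0.24, Il7r, the interleukin 7 receptor, at -0.32 ± 0.23, the integrin chain Itgb7 at -0.29 ± 0.72, Btla at -0.27 ± 0.39, Ms4a1 (CD20) at -0.16 ± 0.12 and Slamf1 at -0.12 ± 0.24. Apart from Ptprc, Itgae and Thy1, these were named after their values were seen. No region under the name Epcam or Cd8a was analysed here.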

How the data were processed

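Genomic DNA of 4 samples was measured on 2 Agilent 2-colour arrays. Per the file headers and the submitters' processing notes, the authors used Agilent Feature Extraction 9.1.3.1. The deposited intensity values (processed signals) are background-subtracted, spatially detrended and dye-normalized by a linear factor per the file headers. The deposited log10 ratios and their errors come from the software's error model for 1 spot. Neither the step that makes the signal depend on methylation nor the build of the probe positions is recorded in the labels or headers, so differences are stated as differences of signal. The deposited value tables equal the processed signals in 100% of spots. The 4 scanner files hold 2 distinct arrays.

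The 10 alternatives changed the centring, the background correction, the filter on dim probes, the summary over probes, the source of the ratio, the gap that joins probes or the call rule. Log2 ratios were computed per probe from the intensities and centred on the array median over usable probes (-0.029 and -0.052 before centring). Alternatives were run with Python 3.11.15, statsmodels 0.14.6 (loess, span 0.3) and limma 3.58.1 under R 4.3.3 (normexp, offset 50). Median raw brightness at 32 months was 203 and 135, against 107 in the 507 negative controls of each array. At 3 months it was 113 and 71.8, against 80 and 61.7. The region calling was tried on simulated data, with values shuffled among usable probes and known shifts added. Shuffling removes any likeness of neighbouring probes, so this does not show how often real differences near the threshold are called. With 1 sample per age and array no test was made, and the number of arrays limits the precision.

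Regions described in full were the 4 of each class with the largest size among those with at least 3 usable probes, any region past 1, and Cd3e, Cd4, Cd79a, Cd68, Cd34, Cd44, Cd81, Cd24a and Cd274, with other members by their values; 1 member counted in the summaries is not reported here by name. Probes past 1 or past 2 scanner errors in other members were named after their values were seen. The members and lists were chosen with earlier results of these data known. For 76 member genes the name on the array is still the symbol in use, and for 3 it was updated. Of 14109 regions on the same chromosome in GRCm38.p6, 1.50% lay within 5000 bp of the gene's position there, so RefSeq served for names and promoter windows only.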

Additional observations from a re-analysis of the deposited data

How the results depend on the processing

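The absence of calls held under 7 of the 10 alternatives, the exceptions being normexp background correction and the median threshold alone, each with 1 member called higher (Cd6 and Cd200r2), and the mean over probes, with 1 called lower (Cd320 at -1.03). Of the CD antigens with another symbol, 1 was called higher after loess and with the median threshold alone (Flt3 in both) and 3 after normexp (Flt3, Il3ra and Csf1r). Over all 14835 measured autosomal regions, 279 (1.88%) were called higher after loess and 295 (1.99%) after normexp, in place of 271 (1.83%). The threshold alone gave 415 higher calls (2.80%). Lower calls were 15 after normexp, 93 with the mean over probes and 131 with the threshold alone, in place of 87. With dim probes kept, 44 of 16801 regions were called lower. The median over the members stayed between -0.098 and -0.028. The lymphoid median reached 0.025, the broadly expressed median 0.0021 and that of genes shared by leukocytes 0.021, so the sign of each rests on the setting. Leaving ratios uncentred moved the median of all genes to -0.036. Of 220 values of regions described in full, 218 stayed within 1 SD over probes, and Cd24a (0.13) and the Plgrkt side of Cd274 (-0.42) moved further with normexp. That SD is wide where probes disagree, so lying within it does not show that a value is stable. Cd200r2 counted as within it although it went from 2.51 to -0.020 with dim probes kept (SD 4.29). So did Cd320 (-0.92 to -0.30) and Cd70 (0.98 to 0.35), both with normexp. Centring on all positioned probes and the threshold alone were chosen after seeing the data. The cause of these changes was not tested. No paired analysis was possible because each age was measured once per array. Probes near background can have scanner errors above 1.5 on the log2 scale, and no replicate or dye swap bounds the error of any region.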

Other observations

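Flt3, the cytokine receptor CD135 of early lymphoid and myeloid progenitors, was the highest CD antigen with another symbol, at 2.05 ± 0.83 over 7 probes. It missed the call through 1 probe at -0.0084, while the highest was at 2.17, and its median signals were 15100 at 32 months and 3420 at 3 months. The same list held wide spreads in the checkpoint receptor Ctla4 (0.59 ± 2.00, with probes from -3.25 to 0.97) and in Pdcd1lg2, a ligand of PD-1 (-0.15 ± 1.41, with probes from -1.33 to 2.28). Mcam, an endothelial adhesion molecule, was at 0.76 ± 0.74 with all 6 probes above 0.

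Genes left out by the name rule behaved as follows. Cd99l2, on the X chromosome, was at 0.19 ± 0.29 over 4 probes, where the median of 487 X-linked genes was -0.16. Cd300lf, Cd300lb and Cd300lg, further members of the Cd300 family, were at 0.39 ± 0.89, 0.018 ± 0.49 and 0.053 ± 0.30. Cd2bp2, an intracellular partner of CD2, had 6 probes that were all lower at 32 months (-0.62 ± 0.27).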
